A study of Mus musculus with 5 samples.

Results

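The MYC, MAX and MXD network was followed in mouse lung natural helper cells through 9 genes: the activators Myc and Mycn, their partner Max, the repressors Mxd1, Mxi1, Mxd3, Mxd4 and Mnt, and Mlx, which heads a parallel branch. The genes were taken by symbol from the array table, and each of the 9 had 1 probe set with a single symbol, out of 19938 genes measured. The stimulated samples were 2 arrays of cells from C57Bl/6 lungs cultured for 3 days with 60 ng/ml PMA, a phorbol ester acting on protein kinase C, and 500 ng/ml ionomycin, a calcium ionophore. They were set against 3 arrays of cells lysed directly after the sort, with no culture and no agent. All cells came from naive mice aged 6 to 8 weeks and had been sorted, per the series' design text, as lineage-negative cells that carried CD25, CD127 and Sca-1 and had low or absent c-Kit, while the sample labels name lung leukocytes. The culture was in 200 microlitres of medium with 10% fetal calf serum (FCS). No group was cultured without the 2 agents, so culture, serum and stimulation cannot be told apart. Nothing in the labels ties the samples to separate mice or cultures, and the p-values therefore reflect only how these samples spread, which may be technical.

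MYC is a basic helix-loop-helix zipper protein that binds DNA as a pair with MAX, mostly at the E-box CACGTG, and is known to drive ribosome production, metabolism and cell growth when lymphocytes are activated. MXD proteins and MNT also pair with MAX, bind the same E-boxes and recruit SIN3 and histone deacetylases, so they repress genes that MYC activates. MLX pairs instead with MondoA (gene Mlxip) or ChREBP (gene Mlxipl), which respond to glucose, and it can also pair with some MXD proteins and MNT.

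Values below are log2 expression from RMA, the authors' normalization, and each difference is PMA and ionomycin minus unstimulated on that scale, given with its standard error (SE) from limma's fit over all genes. A gene was called at a Benjamini-Hochberg adjusted p under 0.05 over all 19938 genes, which 1.7% of genes passed (147 higher, 192 lower). The share of calls that were higher was 43.4%, against 55.6% after centring each array on its median and 53.1% after quantile normalization. Of 12 measured natural helper cell and sort markers, 11 lay above the upper quartile of every array, among them Gata3, Rora, Id2 and Il7r. The exception was Kit, which codes for c-Kit and read 7.12 and 6.84 on the stimulated arrays, against 9.88, 9.97 and 9.69 on the unstimulated arrays. It was thus well above the upper quartile (7.03 to 7.11) on all 3 unstimulated arrays, although the sort took cells with low or absent c-Kit protein. Of the 12, Kit, Rora, Id2 and Il7r were called lower and none was called higher, where 0.963% and 0.737% of all genes were. Without overlap, 3 of the 12 were higher and 7 lower, against 18.6% and 14% of all genes. Il13, named after its values were seen, was higher by the most (2.41 ± 0.43 SE, adjusted p = 0.0942). The list's summed linear level was 15766 to 16570 in stimulated and 16478 to 18596 in unstimulated samples. Unstimulated array 3 had the lowest value of the unstimulated arrays for 6 of 6 endothelial and 6 of 7 T cell genes, and also for 9 of the 12 natural helper cell and sort markers, but for 1 of 6 fibroblast and 1 of 6 mast cell and basophil genes. Xist read 4.16 and 4.11 on the stimulated arrays, against 9.09, 10.20 and 9.66 on the unstimulated arrays, and the labels give no sex, so a difference in sex cannot be told apart from the treatment. In these bulk samples, fewer cells of a type and less RNA per cell cannot be told apart either.

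None of the 9 genes passed the test over all genes. The count at an unadjusted p under 0.05 was 3 lower (Mxd1, Mycn and Mxi1) and 1 higher (Mlx), where 8.58% and 11.3% of all genes reached that level in those directions (19.9% in either). The groups did not overlap for the same 4 genes, as they did not for 32.5% of all genes. The median difference of the 9 was -0.20, against 0.00 over all genes. The count of called members was 0 in each direction in the fit described, and in some other settings it was not, with the share of all genes that passed rising too. Mxd1 and Mycn passed as lower with quantile normalization, where 3.66% of all genes were lower and 4.14% higher, and with median centring, where 2.64% were lower and 3.31% higher. They also passed among genes with a mean above that of the median probe set, of which 6.91% were lower and 7.96% higher. Among genes with no value repeated between arrays, Mxd1, Mycn and Mxi1 passed as lower and Mlx as higher, where 15.3% of genes were lower and 20.4% higher. That fit was added after the data were seen. Without stimulated array 2, Mnt passed as lower, where 2.07% of all genes were lower and 1.81% higher. Repeated values were common in the table (62.0% of genes had a value shared by at least 2 arrays), and Max, Mxd3, Mxd4 and Mnt were among those genes.

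**Figure D1:**
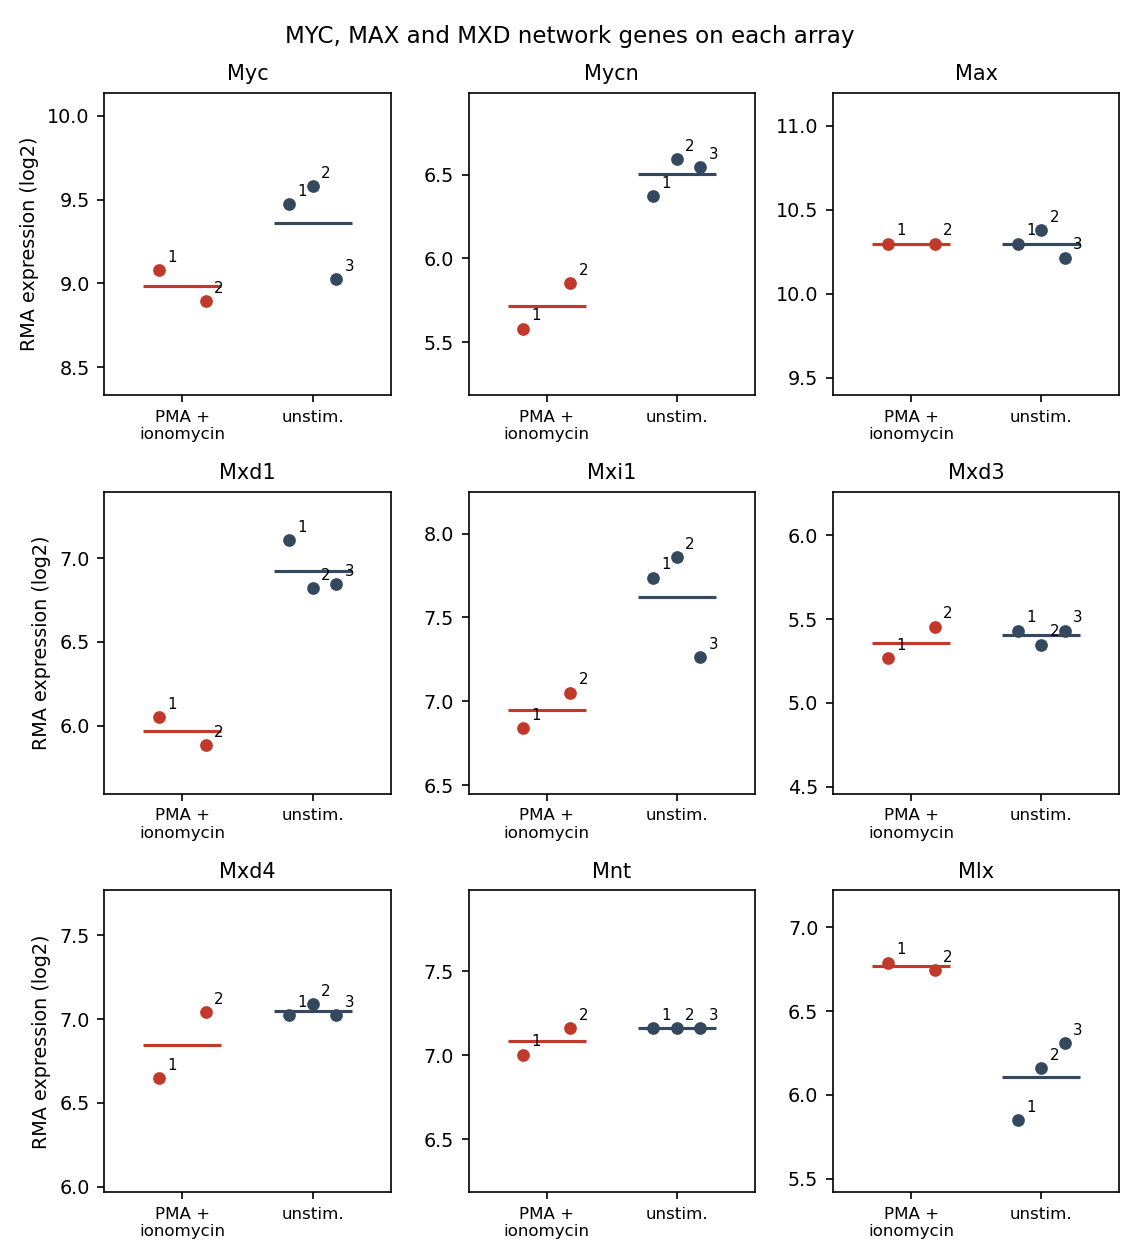
RMA expression (log2, y axis, every panel spanning the same range) of the 9 network genes on the 2 PMA and ionomycin arrays (red) and the 3 unstimulated arrays (dark), with array numbers beside the points and bars at group means. Mxd1, Mycn and Mxi1 are lower and Mlx is higher on both stimulated arrays than on any unstimulated array, and the groups overlap for Myc.

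Myc, the member best known for driving growth of activated lymphocytes, was not higher in the cultured cells. It read 9.08 and 8.89 on the stimulated arrays, against 9.47, 9.58 and 9.02 on the unstimulated arrays. Unstimulated array 3 lay between the 2 stimulated arrays, so the groups overlapped, and unstimulated arrays 1 and 2 were the highest. The means were 8.99 ± 0.13 (SD, n = 2) in stimulated and 9.36 ± 0.29 (SD, n = 3) in unstimulated cells, a difference of -0.37 ± 0.21 SE with a 95% interval of -0.97 to 0.23 (limma adjusted p = 0.467). Against unstimulated array 3 alone the difference was -0.04, and without that array it was -0.54.

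Medians of several marker lists, like Myc, were lowest on array 3 of the unstimulated arrays. These were the endothelial, T cell, B cell, NK cell, macrophage, dendritic cell and epithelial lists and the natural helper cell and sort list. The mast cell and basophil, granulocyte, fibroblast and erythroid medians were not lowest there. The median of 6 endothelial genes was 5.49 and 5.61 on the stimulated arrays, against 7.50, 7.34 and 6.01 on the unstimulated arrays. The summed linear level of those genes ran from 366 to 428 in stimulated and from 523 to 1896 in unstimulated samples. For 7 T cell genes the medians were 6.47 and 6.20 on the stimulated arrays, against 6.58, 7.58 and 5.87 on the unstimulated arrays, and the sums were 1151 to 1485 and 1654 to 2727. No marker was at 0 on the log2 scale, and none of these 13 genes lay below the lower quartile on all arrays. Sums were also lower in stimulated samples for 8 macrophage genes (329 to 443, against 551 to 988 in unstimulated samples), 6 epithelial genes (441 to 548, against 717 to 2986) and 6 granulocyte genes (156 to 164, against 267 to 1095). They were lower as well for 6 mast cell and basophil genes (101 to 105, against 181 to 270), of which Mcpt4 and Ms4a2 lay below the lower quartile on all arrays. In that list Cpa3, a mast cell protease gene named after its values were seen, read 4.11 and 4.08 on the stimulated arrays, against 6.47, 7.48 and 6.74 on the unstimulated arrays (-2.80, adjusted p = 0.0641). No gene of the lists of other cell types was called. The part of other cells in the values of Myc and of the other lower genes was not tested.

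**Figure D2:**
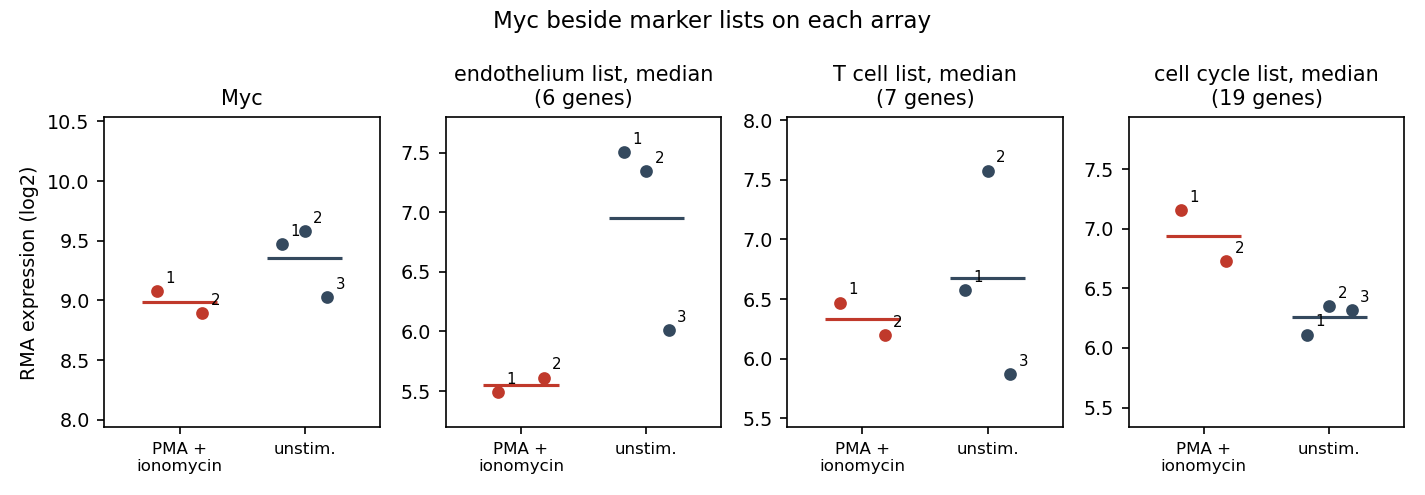
RMA expression (log2) of Myc and the median of 3 gene lists on each array, PMA and ionomycin in red and unstimulated in dark, with bars at group means and array numbers beside points. Unstimulated array 3 has the lowest Myc value (9.02), endothelial median (6.01) and T cell median (5.87) of the unstimulated arrays, and the cell cycle median is highest on stimulated array 1 (7.16).

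By pattern over the 5 arrays, the genes nearest to Myc were Il21r, the receptor gene of interleukin 21, Ptbp1, which codes for a splicing regulator, and Gabpb1, a subunit of an ETS transcription factor complex. Their root mean square differences from Myc, each gene centred on its own mean, were 0.03, 0.03 and 0.05 log2 units among 17068 named genes. None of the 3 was called (adjusted p = 0.472, 0.414 and 0.418). They were picked on the same 5 arrays, so their likeness to Myc is no separate result.

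Mycn, the paralog of Myc that is best known from the nervous system and from stem cells, was lower in the stimulated cells on every array, short of the threshold over all genes. It read 5.58 and 5.85 on the stimulated arrays, against 6.37, 6.59 and 6.54 on the unstimulated arrays. The groups were separated by 0.52 log2 units. The difference was -0.78 ± 0.12 SE, a 1.72-fold lower value (95% interval -1.13 to -0.43, adjusted p = 0.0808), and it was larger in size than that of 92.1% of genes. It passed with quantile normalization (adjusted p = 0.0302), with median centring (0.0455), among genes with a mean above that of the median probe set (0.0325) and among genes with no repeated value (0.0103), and the adjusted p ran from 0.109 to 0.235 with 1 array left out.

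Max, the partner that MYC and MXD proteins share, was flat. It read 10.30 on both stimulated arrays, against 10.30, 10.38 and 10.21 on the unstimulated arrays. The stimulated values and unstimulated array 1 were the same to 5 decimals, and the other unstimulated arrays lay on either side. The difference was 0.0005 ± 0.057 SE with a 95% interval of -0.16 to 0.16 (adjusted p = 1.0), so that a change by more than 0.16 log2 units lay outside the interval. Its sign turned with the setting, from -0.04 with quantile normalization to 0.08 against unstimulated array 3 alone.

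Mxd1, a MAX-binding repressor known to increase as cells stop dividing and differentiate, had the largest difference of the 9. It read 6.05 and 5.89 on the stimulated arrays, against 7.11, 6.82 and 6.85 on the unstimulated arrays. Both stimulated arrays lay at least 0.77 log2 units below every unstimulated array. The difference was -0.96 ± 0.12 SE, a 1.94-fold lower value (95% interval -1.30 to -0.61), and did not pass over all genes (adjusted p = 0.0639). Its size exceeded that of 94.5% of genes.

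The Mxd1 difference ran from -1.04 to -0.86 in the 15 alternatives in which it was fitted. Its groups did not overlap, so no choice among these arrays could turn its direction. It passed with quantile normalization (adjusted p = 0.0309), with median centring (0.0285), among genes with a mean above that of the median probe set (0.0243) and among genes with no repeated value (0.00591), and not with any 1 array left out (0.106 to 0.178). The nearest genes in pattern were Clk1, a kinase that acts on splicing factors, Zcchc14 and Zfand5, with root mean square differences of 0.06, 0.06 and 0.07 log2 units. Of these, Clk1 was called lower (-0.92 ± 0.07 SE, adjusted p = 0.0416), a call lost with any 1 unstimulated array left out (adjusted p from 0.0874 to 0.104). These genes were picked for their likeness to Mxd1 on the same arrays, so their direction was set by that choice and is no separate result.

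Mxi1, another MXD repressor, also lay lower in the stimulated cells, with a wider spread. It read 6.84 and 7.05 on the stimulated arrays, against 7.74, 7.86 and 7.26 on the unstimulated arrays. Unstimulated array 3 was again the lowest of its group, 0.21 log2 units above the nearer stimulated array. The difference was -0.67 ± 0.23 SE (95% interval -1.32 to -0.02, adjusted p = 0.237), and it was -0.32 against unstimulated array 3 alone. Of the 15 alternatives, it passed only among genes with no repeated value (adjusted p = 0.0425). That fit was added after the data were seen, and 15.3% of its genes were called lower.

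The other repressors differed little. Mxd4 read 6.65 and 7.04 on the stimulated arrays, against 7.02, 7.09 and 7.02 on the unstimulated arrays, a difference of -0.20 ± 0.14 SE (95% interval -0.59 to 0.19, adjusted p = 0.475). Stimulated array 2 lay among the unstimulated arrays and stimulated array 1 below them, and the difference was -0.0044 without stimulated array 1 and -0.40 without stimulated array 2.

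Mnt, the MAX partner that is thought to counter MYC in most cell types, read 7.0045 and 7.16 on the stimulated arrays, against 7.16 on each of the 3 unstimulated arrays. Stimulated array 1 alone departed from a value that the other 4 arrays shared to 5 decimals. The difference was -0.08 ± 0.05 SE (95% interval -0.23 to 0.08, adjusted p = 0.475), and without stimulated array 2 it was -0.16 with an adjusted p of 0.0309, which rests on stimulated array 1 alone.

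Mxd3, the MXD member known for expression during S phase, read 5.27 and 5.45 on the stimulated arrays, against 5.43, 5.35 and 5.43 on the unstimulated arrays. Its mean lay below the median of all probe sets, and the groups overlapped. The difference was -0.04 ± 0.07 SE (95% interval -0.25 to 0.17, adjusted p = 0.745), with 0.05 without stimulated array 1 and -0.14 without stimulated array 2. Medians of 19 cell cycle genes on the same arrays were 7.16 and 6.73 in stimulated samples, against 6.11, 6.35 and 6.32 in unstimulated samples, so the stimulated array with the lower Mxd3 value had the higher cell cycle median.

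No cell cycle gene was called, and 1 of the 19, the thymidylate synthase gene Tyms, was higher at an unadjusted p under 0.05, where 0.737% of all genes were called higher and 11.3% were higher at the unadjusted level. Differences were above 0 for 18 of the 19, against 49.8% of all genes, and 6 of the 19 were higher without overlap, against 18.6%. The median difference was 0.46, against 0.00 over all genes. The 2 largest differences were in Tyms (1.06 ± 0.11 SE, adjusted p = 0.0510) and in the mitotic kinase gene Cdk1 (0.88 ± 0.45, adjusted p = 0.428). Cdk1 read 7.13 and 5.97 on the stimulated arrays, against 5.30, 5.87 and 5.85 on the unstimulated arrays, so stimulated array 1 was well above the other stimulated array.

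**Figure D3:**
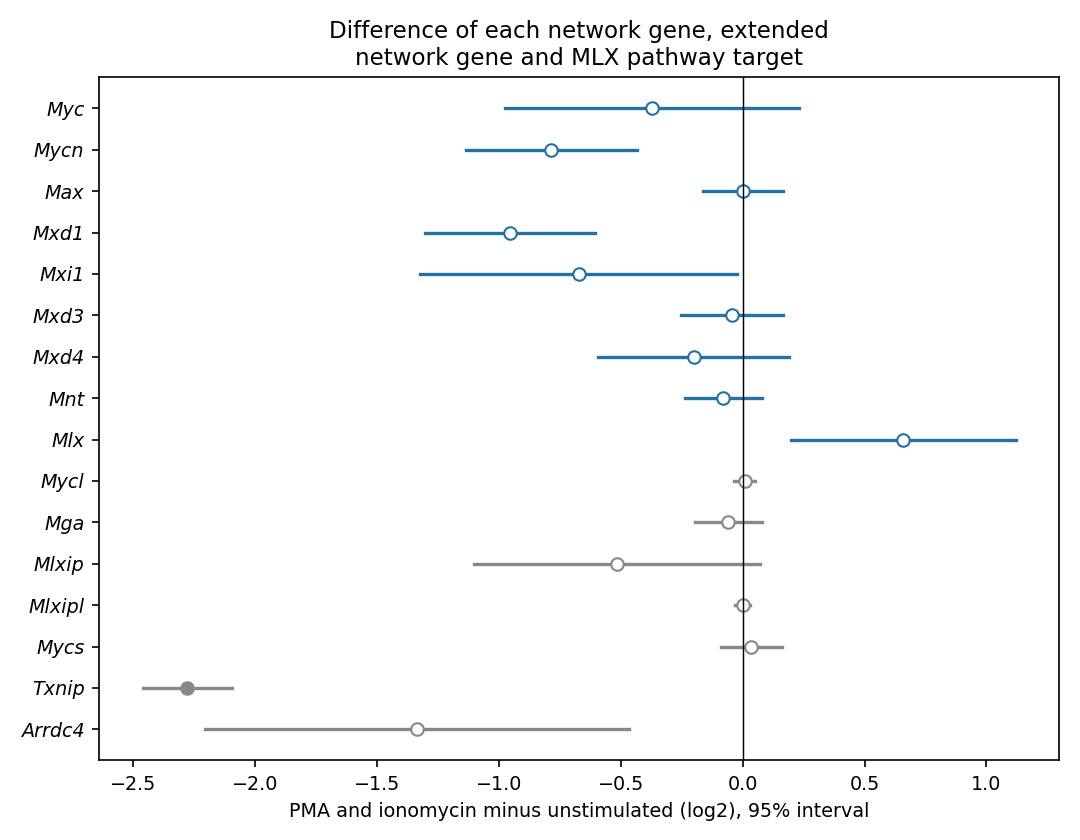
Difference between PMA and ionomycin and unstimulated arrays (log2, x axis) with its 95% interval for the 9 network genes (blue) and for 5 related genes and 2 targets of the MLX branch (grey), with a filled symbol where the gene passed at an adjusted p under 0.05. Only Txnip (-2.28) is filled, and the intervals of Mxd1, Mycn, Mxi1, Mlx and Arrdc4 do not reach 0.

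Mlx was the member that was higher in the stimulated cells. It read 6.79 and 6.74 on the stimulated arrays, against 5.85, 6.16 and 6.31 on the unstimulated arrays. The stimulated arrays lay close together and at least 0.43 log2 units above every unstimulated array. The difference was 0.66 ± 0.16 SE, a 1.58-fold higher value (95% interval 0.20 to 1.12), and it did not pass over all genes (adjusted p = 0.147). Of the 15 alternatives, it passed among genes with no repeated value (adjusted p = 0.0245), and it ran from 0.46 to 0.76. The fit in which it passed was added after the data were seen, and 20.4% of its genes were called higher.

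The glucose-sensing partners of MLX did not share that direction. Mlxip, which codes for MondoA, read 7.13 and 7.40 on the stimulated arrays, against 7.71, 8.08 and 7.56 on the unstimulated arrays, a difference of -0.52 ± 0.20 SE (adjusted p = 0.308). Both stimulated arrays lay below the unstimulated ones. Mlxipl, which codes for ChREBP, had 1 value, 5.43, on all 5 arrays.

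Of the other relatives, Mycl, the third MYC paralog, differed by 0.01 ± 0.01 SE (adjusted p = 0.732) and Mycs, a retrocopy in the MYC family of rodents, by 0.04 ± 0.04 (adjusted p = 0.654). Mga, a large MAX partner, differed by -0.06 ± 0.05 (adjusted p = 0.512). Each of these 3 had a value that at least 3 arrays shared.

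Txnip, a target of MondoA and MLX that restrains glucose uptake, fell 4.85-fold. It read 7.25 and 7.39 on the stimulated arrays, against 9.55, 9.57 and 9.67 on the unstimulated arrays. The groups lay 2.16 log2 units apart, with spreads of 0.10 (SD, n = 2) in stimulated and 0.06 (SD, n = 3) in unstimulated samples. The difference was -2.28 ± 0.06 SE (95% interval -2.46 to -2.09, adjusted p = 0.0168), larger in size than that of 99.4% of genes. Leaving out unstimulated array 1 gave an adjusted p of 0.0714, leaving out unstimulated array 2 gave 0.0907, and leaving out unstimulated array 3 gave 0.0409. Leaving out a stimulated array leaves 1 in that group, and the difference was then -2.21 (without array 1) or -2.35 (without array 2).

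Arrdc4, a relative of Txnip and another MondoA target, read 5.37 and 5.45 on the stimulated arrays, against 7.10, 6.89 and 6.25 on the unstimulated arrays. Unstimulated array 3 was the lowest of its group and still 0.80 log2 units above the stimulated arrays. The difference of -1.34 ± 0.30 SE did not pass over all genes (adjusted p = 0.132). In the list of 12 MondoA and ChREBP targets, written with earlier results of these data known, Txnip was the 1 gene called lower and the desaturase gene Scd2 the 1 gene called higher (0.88 ± 0.09 SE, adjusted p = 0.0492), while 0.963% and 0.737% of all genes were called in those directions. The Scd2 call was lost with any 1 array left out (adjusted p from 0.0752 to 0.167). At an unadjusted p under 0.05, 3 of the 12 were higher and 3 lower, where 11.3% and 8.58% of all genes were. The median of the list was 0.06.

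**Figure D4:**
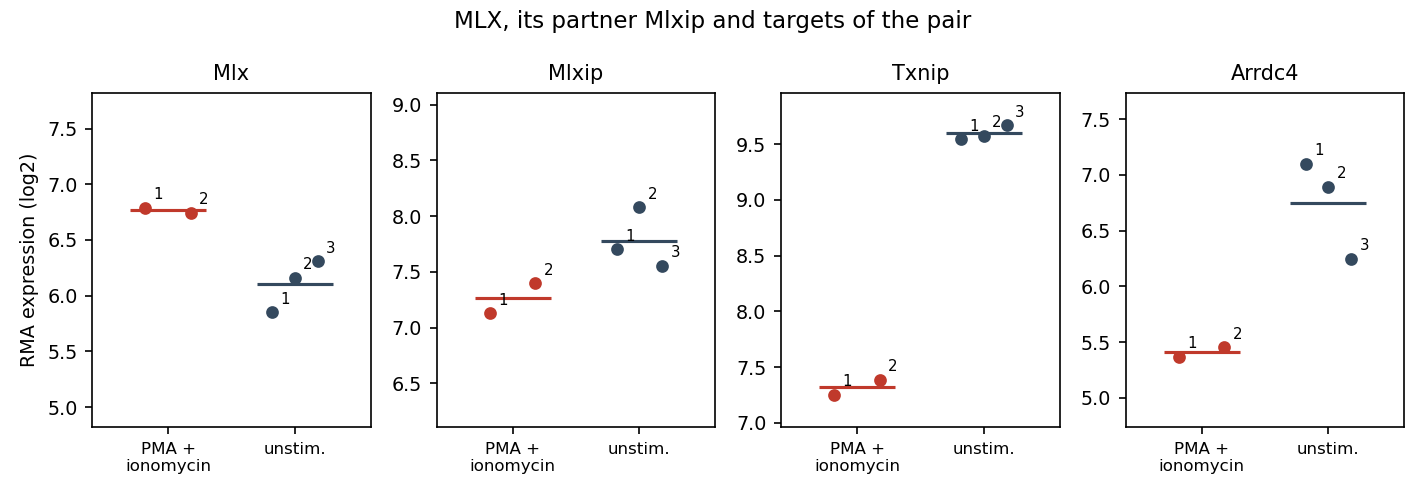
RMA expression (log2, each panel spanning the same range) of Mlx, its partner gene Mlxip and the target genes Txnip and Arrdc4 on the PMA and ionomycin arrays (red) and the unstimulated arrays (dark), with bars at group means. Mlx is higher and the other 3 genes are lower on both stimulated arrays, with the widest gap in Txnip (7.25 and 7.39 against 9.55 to 9.67).

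The promoters of the network genes were read for the E-box itself, because MYC, MXD and MLX proteins are all known to bind it. RefSeq promoters of GRCm38.p6, 250 bases before to 50 after each gene start, were matched for 8 of the 9 genes (10 promoters, 3 of them for Mxi1), and Myc had no entry. The letters CACGTG, which read the same on both strands, were in the promoters of Max, Mxd4, Mnt and Mlx, in 7.15% of all 32851 promoters and in 8.09% of genes. Stretches of 30 bases around each are given in reading direction with the motif in capitals, from chr12:76962199-76962498 (minus strand), chr5:34187661-34187960 (minus), chr11:74830674-74830973 (plus) and chr11:101087040-101087339 (plus).
Max: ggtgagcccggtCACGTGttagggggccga
Mxd4: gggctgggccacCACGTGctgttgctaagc
Mnt: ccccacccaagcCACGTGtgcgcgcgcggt
Mlx: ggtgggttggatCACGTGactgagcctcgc
The motif began 3 bases before the gene start in Max, 40 in Mlx, 123 in Mnt and 219 in Mxd4. Of these genes, Mlx was the 1 whose groups did not overlap.

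Mxd1, Mycn and Mxi1, the members with lower values on both stimulated arrays, had no CACGTG in these windows, and neither had Mxd3. The Mxd1 promoter is shown whole because its gene had the largest difference. It lies at chr6:86669110-86669409 on the minus strand and is given with no capitals, as no motif was found.
Mxd1: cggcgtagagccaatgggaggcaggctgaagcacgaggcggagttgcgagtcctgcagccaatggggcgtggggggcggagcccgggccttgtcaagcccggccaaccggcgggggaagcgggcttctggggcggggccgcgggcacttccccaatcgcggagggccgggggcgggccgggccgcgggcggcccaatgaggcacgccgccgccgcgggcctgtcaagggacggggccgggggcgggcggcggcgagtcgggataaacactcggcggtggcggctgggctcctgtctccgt
No match says only that these letters are not in this window.

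The Txnip promoter was read for the carbohydrate response element, the paired site through which MondoA and MLX are known to act on this gene. The search was for 2 copies of CACGAG with 5 bases between them, on both strands, a spelling chosen with the Txnip element in mind, and it matched 1 of the 32851 promoters, that of Txnip itself. The window lies at chr3:96557707-96558006 on the plus strand, with the pair in capitals, beginning 85 bases before the gene start.
Txnip: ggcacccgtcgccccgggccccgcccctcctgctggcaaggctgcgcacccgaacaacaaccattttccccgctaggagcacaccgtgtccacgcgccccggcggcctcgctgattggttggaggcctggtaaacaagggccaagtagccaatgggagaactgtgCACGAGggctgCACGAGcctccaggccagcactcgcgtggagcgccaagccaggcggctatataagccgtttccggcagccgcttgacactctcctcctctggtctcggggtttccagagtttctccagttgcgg
Arrdc4 had no such pair and a CACGTG that began 193 bases before its start, within chr7:68749189-68749488 on the minus strand.
Arrdc4: aaaggtcctgtgCACGTGcactatggtgtc
Both genes had lower values on the stimulated arrays, as given above, and a match in letters is not evidence of binding.

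Known targets of MYC were mostly higher in the stimulated cells, although Myc itself was not. Of 55 measured genes of a list of known MYC targets, 4 were called higher and none lower. Over all genes, those shares were 0.737% and 0.963%. At an unadjusted p under 0.05, 36 were higher and 0 lower, where 11.3% of all genes were higher at that level. Among genes with a mean above that of the median probe set, 36 of 52 targets and 2106 of 10356 genes were so. Among genes with no repeated value, 34 of 42 targets and 2167 of 7579 genes were. Differences were above 0 for 49 of the 55, against 49.8% of all genes, and both stimulated arrays lay above every unstimulated array for 42, against 18.6% of all genes. Both lay below every unstimulated array for 2, Tmem97 (-0.64) and Rabepk (-0.23), against 14% of all genes. The median difference was 0.46, against 0.00 over all genes, and it ran from 0.45 to 0.53 with 1 array left out and was 0.43 against unstimulated array 3 alone. RefSeq promoters were matched for 50 of these genes, and CACGTG was in those of 14 (28%), against 8.09% of all genes. The list was written with earlier results of these data known, holds many genes of ribosome production, and is no independent evidence of direction.

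The 4 called targets serve growth in different ways. Nop16, a nucleolar factor of ribosome assembly, read 8.46 and 8.56 on the stimulated arrays, against 7.36, 7.47 and 7.33 on the unstimulated arrays (1.12 ± 0.06 SE, adjusted p = 0.0306). Las1l, which codes for an endonuclease that processes ribosomal RNA, rose by 1.12 ± 0.08 (adjusted p = 0.0374). The mitochondrial chaperone gene Hspd1 rose by 0.66 ± 0.06 (adjusted p = 0.0442).

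The fourth, Pprc1, codes for a coactivator of mitochondrial biogenesis and rose by 0.36 ± 0.02 (adjusted p = 0.0339). The 4 genes did not overlap between groups. With any 1 unstimulated array left out, none of the 4 was called (adjusted p from 0.0608 to 0.156). Leaving out a stimulated array leaves 1 in that group, so such a fit does not measure the spread of stimulated samples. The spermidine synthase gene Srm, named after its values were seen, differed by the most in that list (1.61 ± 0.16, adjusted p = 0.0510).

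Among 21 measured genes of a second list, of single genes often cited as MYC targets, 2 were called higher and none lower. Over all genes, those shares were 0.737% and 0.963%. Tfrc, the transferrin receptor gene, read 9.81 and 9.58 on the stimulated arrays, against 8.22, 8.09 and 8.32 on the unstimulated arrays (1.48 ± 0.11 SE, adjusted p = 0.0363). The translation initiation factor gene Eif4a1 rose by 0.74 ± 0.06 (adjusted p = 0.0403). Tfrc was not called in any fit with 1 array left out, and Eif4a1 was called in 1 of 5.

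The median of that list was 0.58, and 13 of the 21 were higher on both stimulated arrays than on any unstimulated array, as were 18.6% of all genes. In the other direction, 1 was lower without overlap, as were 14% of all genes. Some of the most cited targets did not follow. Odc1, the ornithine decarboxylase gene of polyamine synthesis, read 10.77 and 10.82 on the stimulated arrays, against 11.38, 11.18 and 11.21 on the unstimulated arrays (-0.46 ± 0.08 SE, adjusted p = 0.0856). The nucleolin gene Ncl differed by 0.0009 ± 0.04 (adjusted p = 1.0). Odc1 and Ncl were named after their values were seen.

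**Figure D5:**
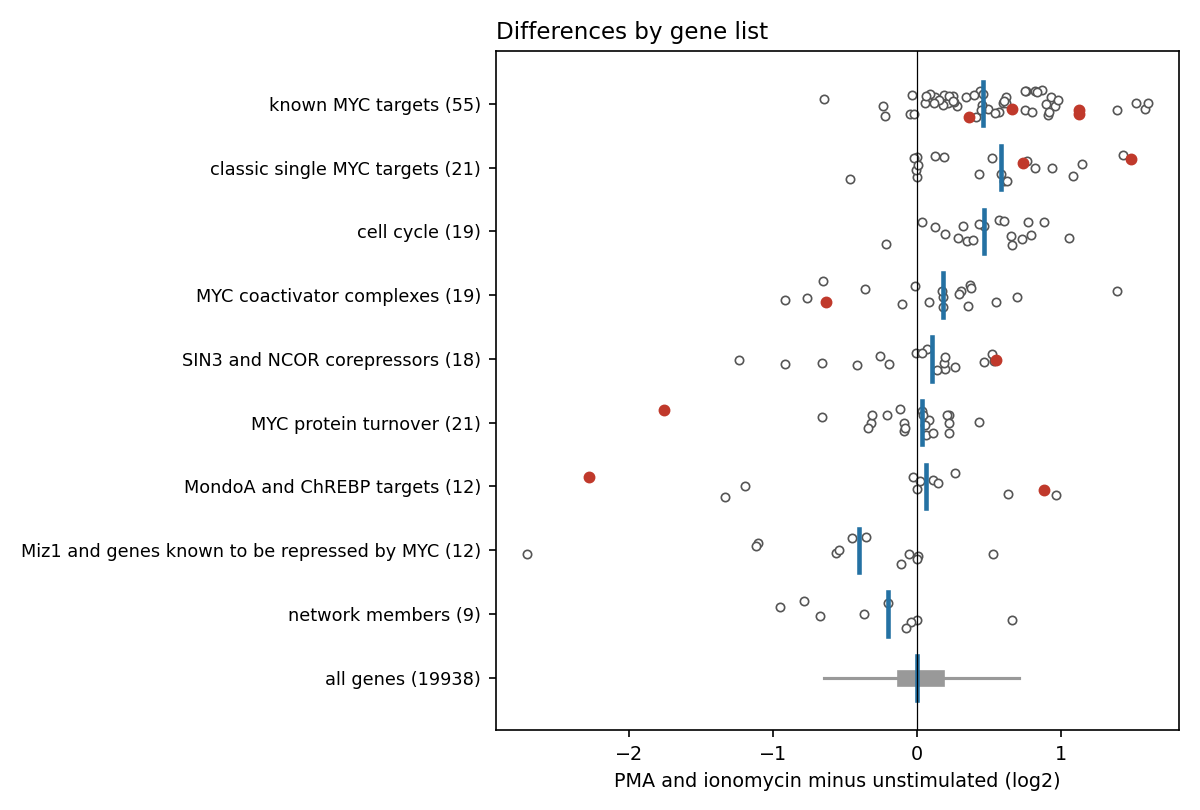
Difference between PMA and ionomycin and unstimulated arrays (log2, x axis) of each measured gene in 9 lists, with called genes filled in red and list medians as blue bars. The lowest line gives all 19938 genes, with a thick bar from the lower to the upper quartile and a thin one from the 5th to the 95th percentile. Medians are 0.46 and 0.58 for the lists of MYC targets, -0.20 for the network members and -0.40 for genes known to be repressed by MYC.

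Genes known to be repressed by MYC, many through its partner Miz1 (gene Zbtb17), had no called member among 12 measured. At an unadjusted p under 0.05, 4 were lower and 1 higher, where 8.58% and 11.3% of all genes were. The 2 widest differences were in the stress-induced genes Gadd45b (-2.71 ± 0.31 SE, adjusted p = 0.0582) and Gadd45g (-1.12 ± 0.26, adjusted p = 0.136). Gadd45b read 7.61 and 7.64 on the stimulated arrays, against 10.58, 10.62 and 9.80 on the unstimulated arrays. Groups were lower without overlap for 6 of the 12, where 14% of all genes were, and the median was -0.40. Zbtb17 itself, named after its values were seen, differed by 0.01 ± 0.01 (adjusted p = 0.738).

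The cofactors on each side of the network gave single calls. Of 19 measured genes of coactivator complexes used by MYC, 1 was called lower and none higher, where 0.963% and 0.737% of all genes were. Without overlap, 10 of the 19 were higher and 6 lower, against 18.6% and 14% of all genes, and the list median was 0.18. The called gene was Ccnt1, the cyclin of the elongation factor P-TEFb (-0.63 ± 0.05 SE, adjusted p = 0.0440). The widest differences were in Ruvbl1, an ATPase subunit of chromatin remodelling complexes (1.39 ± 0.17, adjusted p = 0.0638), and Epc1, a subunit of the NuA4 acetyltransferase complex (-0.92 ± 0.10, adjusted p = 0.0549). Ruvbl1 read 9.063 and 9.004 on the stimulated arrays, against 7.36, 7.72 and 7.86 on the unstimulated arrays.

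Of 18 measured genes of the SIN3 and NCOR corepressors, through which MXD proteins act, 1 was called higher and none lower. Over all genes, those shares were 0.737% and 0.963%. Without overlap, 8 of the 18 were higher and 5 lower, against 18.6% and 14% of all genes. The called gene was Arid4a, a SIN3 complex subunit (0.55 ± 0.04 SE, adjusted p = 0.0416). Sap18 (-1.24 ± 0.22, adjusted p = 0.0937) and Ing2 (-0.92 ± 0.15, adjusted p = 0.0847), both subunits of SIN3 complexes, differed by more and did not pass. Sin3a and Sin3b, the scaffolds that bind MXD proteins, are in that list, were named after their values were seen, and differed by -0.01 ± 0.02 (adjusted p = 0.818) and 0.19 ± 0.11 (adjusted p = 0.467).

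Among 21 measured genes that set the turnover of MYC protein, 1 was called lower and none higher. Over all genes, those shares were 0.963% and 0.737%. Without overlap, 2 of the 21 were higher and 6 lower, against 18.6% and 14% of all genes. The called gene was the kinase gene Pim1, whose product can phosphorylate and stabilise MYC (-1.76 ± 0.13 SE, adjusted p = 0.0369). Pim1 read 6.48 and 6.68 on the stimulated arrays, against 8.30, 8.53 and 8.20 on the unstimulated arrays. The next widest difference was in Fbxo32 (-0.66 ± 0.26, adjusted p = 0.307), a ubiquitin ligase subunit gene. The calls of Ccnt1, Arid4a and Pim1 were each lost with any 1 array left out (adjusted p from 0.0541 to 0.128).

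Other zipper proteins that bind E-boxes showed no call among 9 measured. None reached an unadjusted p under 0.05, where 19.9% of all genes did. The widest differences were in Srebf2, the sterol regulator gene (0.59 ± 0.22 SE, adjusted p = 0.287), and Tfe3 (-0.08 ± 0.05, adjusted p = 0.472).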

How the data were processed

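Total RNA (6 micrograms) was labelled with biotin for a 1-colour Affymetrix array, per the labels' protocols. The deposited log2 values come from RMA, per the submitters' processing notes. Its version and the arrays normalized together are not given in the sources used here. There were 35556 probe sets on 5 arrays and no detection calls, so the number of arrays limits the precision. The platform annotation gave a single symbol for 21789 probe sets, several for 1621 (not used), and does not list 12146. For 999 genes with several probe sets, the probe set with the highest mean was kept. Groups came from sample titles.

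The comparison used R 4.3.3 with limma 3.58.1 (lmFit, eBayes, Benjamini-Hochberg adjustment over 19938 genes, no dim filter; prior degrees of freedom 0.649, residual 3). An exact permutation of 3 against 2 arrays cannot go below p = 0.1, so none is given. The members and all gene lists were chosen with earlier results of these data known, and lists carry no set test. Named genes were the 9 members, the 5 relatives, Txnip and Arrdc4, up to 4 called genes a list (the 2 widest differences where under 2 were called), and the 3 nearest in pattern to Myc and Mxd1. Alternatives changed the variance model, array weights, dim filter, probe summary, normalization, threshold, block and arrays. Added after seeing the data was a fit of genes with no repeated value. Some listed genes without a single-symbol probe set, such as Cdkn1a and Ncor1, were not analysed here. Plots were drawn with matplotlib 3.10.9.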

Additional observations from a re-analysis of the deposited data

How the results depend on the processing

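No member was called in the fit reported above, and the count of called members stayed at 0 in each direction under an intensity trend, robust prior variances, array weights, averaged probe sets, a 2-fold minimum, the replicate block and unstimulated array 3 alone. It was 2 lower (Mxd1 and Mycn) with quantile normalization, with median centring and among genes with a mean above that of the median probe set, and 3 lower and 1 higher (Mxd1, Mycn, Mxi1 and Mlx) among genes with no repeated value. With 1 array left out it was 0 to 1 lower (Mnt) and 0 higher. The number of called genes changed with the setting: 45 higher and 66 lower with robust prior variances, 824 and 716 above the median probe set, 660 and 526 with median centring, 825 and 729 with quantile normalization, 1548 and 1161 with no repeated value, 63 and 121 at 2-fold or more, and 0 to 361 higher and 0 to 413 lower with 1 array left out. It was 0 in both directions against unstimulated array 3 alone (3739 at an unadjusted p under 0.05). Replicate numbers are shared between groups only as numbers: deviations of arrays numbered 1 correlated at -0.14 across genes, and with the replicate block on 4 arrays limma called 0 genes (3568 at an unadjusted p under 0.05), 0 known MYC targets and not Txnip (-2.24, adjusted p = 0.167), against 45 higher and 43 lower without the block on the same arrays. Called known MYC targets numbered 2 with robust prior variances, 16 above the median, 12 with median centring, 16 with quantile normalization, 29 higher and 1 lower (Tmem97) with no repeated value, 2 at 2-fold or more, 0 against unstimulated array 3 alone, and 0 to 2 with 1 array left out. The Max difference turned to -0.00462 with array weights, -0.0428 with quantile normalization and -0.0407 with the replicate block, ran from -0.0407 to 0.0415 with 1 array left out, and that of Mxd3 turned to 0.0517 without stimulated array 1 and ran down to -0.137. Fits without a stimulated array, or against unstimulated array 3 alone, leave 1 array in a group and do not measure that group's spread. Those fits, and the replicate block, also leave fewer residual degrees of freedom than the 3 of the reported fit. The cause of these changes was not tested.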
